A study of Homo sapiens with 8 samples.

Results

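Histone lysine methylation is written by SET-domain methyltransferases and removed by demethylases, and the RNA levels of these enzymes were followed in MOLM-13, an acute myeloid leukemia (AML) cell line with a KMT2A rearrangement. The set was chosen by name from the count table. It held the KMT2 to KMT5, KDM and SETD genes together with EZH1, EZH2, NSD1 to NSD3, ASH1L, SUV39H1, SUV39H2, EHMT1, EHMT2, SETDB1, SETDB2, SMYD2 and SMYD3. Of 49 matching names, 3 were left out by the rule, KMT2A among them, which left 46 of 38551 genes. All 8 libraries came from this 1 cell line. In 4 of them the cells had been treated with 100 nM PR-957 (ONX-0914), an inhibitor of the immunoproteasome subunit PSMB8, and in the other 4 with the diluent DMSO, each for 72 h. The comparison asks which of these enzymes changed at the RNA level when PSMB8 was inhibited.

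Most of these enzymes act on particular lysines of histone H3 or H4, while some of the SET-domain proteins act on other substrates. Methylation of H3K4 and H3K36 is found at active genes, methylation of H3K9 and H3K27 at silent chromatin, and methylation of H4K20 in compact chromatin and during the cell cycle. Demethylases belong to a flavin-dependent class, KDM1A and KDM1B, or to the JmjC class, which uses iron and 2-oxoglutarate. Methyltransferases of this kind are of interest in KMT2A-rearranged AML because KMT2A is itself an H3K4 methyltransferase, whose fusion proteins lose the catalytic SET domain.

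Libraries held between 16675036 and 23111223 counted fragments, and totals did not separate the groups (exact permutation p = 0.914, two-sided, where the smallest possible p is 0.0286). The enzymes took between 0.246% and 0.275% of the counts of a library. A count of 0 allows up to 3 counts, or 0.130 to 0.180 CPM by library. CPM are counts scaled to library size, and those given for genes also carry the TMM factors of edgeR. Of 8 myeloid marker genes, 7 had more than 50 counts in every library. The markers of other lineages summed to between 1.44 and 3.54 CPM, with CD3E at 0 in all libraries. The summed myeloid markers were 935 to 1003 CPM in DMSO and 1294 to 1358 CPM in PR-957. Most of that rise was MPO, with means of 175 and 506 CPM (log2 fold change 1.53, adjusted p = 1.26e-12 in edgeR). Of the 7 markers tested, 2 were higher and 5 were not called, among them CEBPA (means of 564 and 555 CPM). The part of these markers in the results was not tested. In bulk RNA, a smaller share of cells that express a gene and less RNA per cell cannot be told apart.

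The largest decreases were in demethylases. Of the 46 genes, 44 passed the filter on low counts and were tested. PR-957 lowered 15 and raised 6 of them (quasi-likelihood test in edgeR, adjusted p below 0.05), and 23 were not called. That is 47.7% of the tested enzymes, beside 46.6% of all 13179 tested genes, so the set as a whole was called about as often as other genes. By direction, 23.1% of all tested genes were higher and 23.5% lower. With scaling by library totals alone, 13 enzymes were higher and 10 lower, beside 4066 and 2353 of all genes. The median log2 fold change of the enzymes was -0.02, and that of all tested genes was 0.0030. The median absolute log2 fold change was 0.18 for the enzymes and 0.25 for all tested genes. Changes of at least 0.322 on the log2 scale were found for 7 lower and 2 higher enzymes, where 15.5% of all tested genes were that much lower and 14.7% that much higher. Of the 7 that fell that far, 5 were demethylases and 2 were SET-domain genes, although calls of any size were about as frequent among 15 demethylases (46.7%) as among 29 SET-domain genes (48.3%). At least 2-fold, only KDM7A and KDM6B were lower, in a background of 2.39%, and 0 were higher in a background of 2.63%, the highest log2 fold change being 0.34. The CPM of the groups did not overlap for 19 of the 44 enzymes, beside 42.5% of all tested genes.

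**Figure D1:**
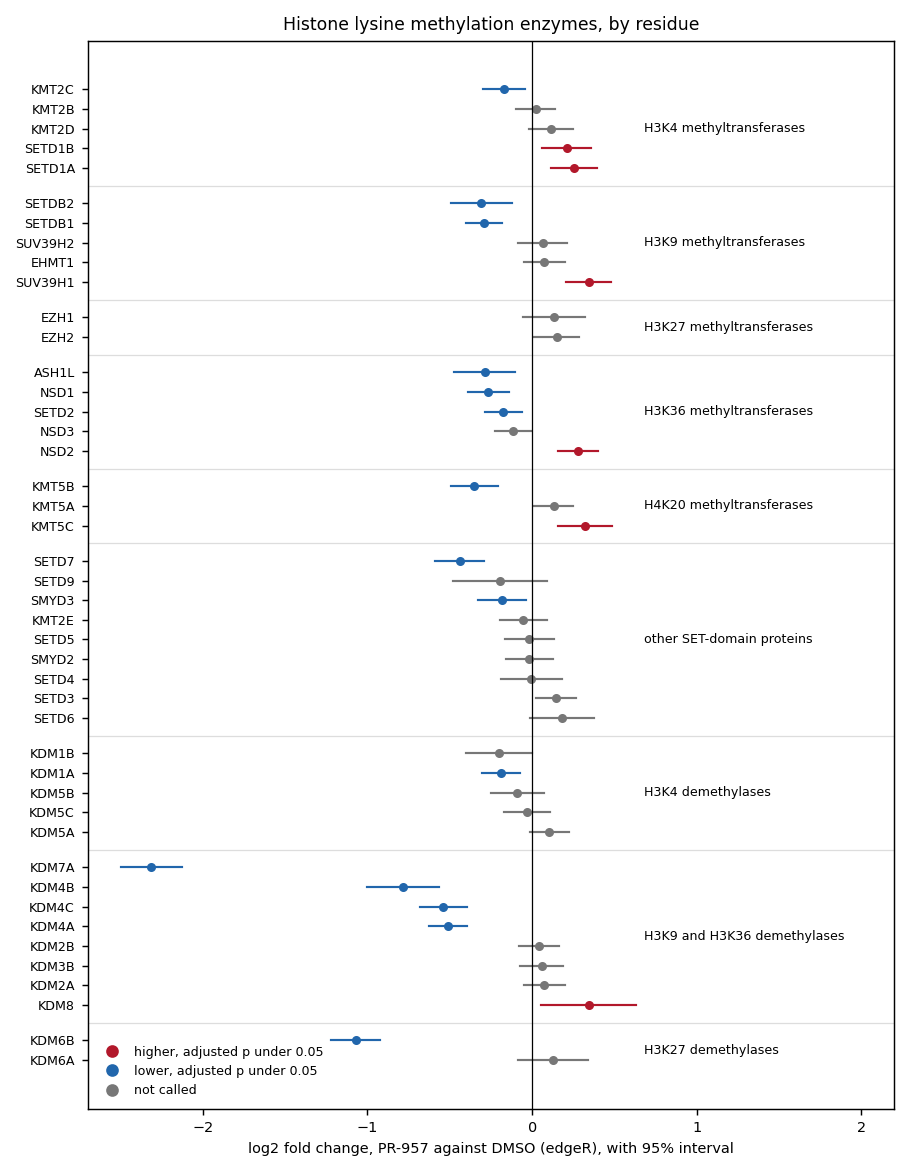
Log2 fold change (PR-957 against DMSO, edgeR) of the 44 tested enzymes on the x axis, grouped by residue, with points for the estimate and lines for its 95% interval from 4 libraries per group. KDM7A at -2.31 and KDM6B at -1.07 lie far to the left of the other enzymes, which sit between -0.79 and 0.34.

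Among demethylases of H3K9 and H3K36, 8 of 9 were tested, with 4 lower and 1 higher, beside 23.5% and 23.1% of all tested genes. All 4 that fell had separate ranges in the treatment groups, as did 42.5% of all tested genes. KDM7A, a JmjC enzyme that removes methyl groups from H3K9 and H3K27, showed the largest change of the whole set. KDM7A lies on chromosome 7 at 140084746-140176983 (hg38, minus strand). It was measured at 41.6, 46.2, 46.5 and 46.7 CPM in DMSO replicates 1 to 4 and at 9.86, 8.61, 10.2 and 7.70 CPM in PR-957 replicates 1 to 4. Every treated library was thus far below every control library. The means were 45.2 ± 2.45 and 9.09 ± 1.14 CPM (SD, n = 4), a 4.97-fold decrease (log2 fold change -2.31, SE 0.09, adjusted p = 1.11e-13). In absolute size this change was at the 99.5th percentile of all tested genes. It was -2.25 in replicates 1 and 2 alone and -2.38 in replicates 3 and 4 alone.

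The KDM4 family removes di- and trimethyl marks from H3K9 and H3K36. KDM4A lies on chromosome 1 (43650149-43705518), KDM4B on chromosome 19 (4969087-5153603) and KDM4C on chromosome 9 (6720863-7175648), all on the plus strand. The 3 tested genes were all lower, and these 3 calls held in each of the 18 alternative settings. KDM4B fell the most of them. Its levels in DMSO were 64.4, 62.0, 60.7 and 83.7 CPM, and those in PR-957 were 42.1, 34.4, 39.7 and 41.4 CPM. DMSO replicate 4 stood above the other controls, and the lowest control was still above the highest treated library. The log2 fold change of KDM4B was -0.79 (SE 0.10, adjusted p = 2.9e-05), from 67.7 ± 10.7 to 39.4 ± 3.47 CPM. KDM4C ranged from 35.2 to 39.3 CPM in DMSO, with replicates at 39.3, 37.4, 35.2 and 36.6, and stood at 24.3, 25.4, 26.2 and 26.2 CPM in PR-957 (log2 fold change -0.54, SE 0.07, adjusted p = 2.58e-06). For KDM4A the values were 71.5, 77.2, 76.6 and 71.9 CPM in DMSO and 51.9, 51.8, 52.0 and 53.0 CPM in PR-957. The treated libraries of KDM4A were nearly equal, and its log2 fold change was -0.51 (SE 0.06, adjusted p = 4.49e-07). KDM4D, the fourth family member in the table, had 0 to 8 counts in any library and was not tested.

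The sequences upstream of KDM7A, KDM6B, KDM4A and KDM4B are shown because these were the enzymes with the lowest log2 fold changes whose RefSeq window lies mostly before the exons of the count table's gene model. The window of KDM4C lies within them and is not shown. The sequences were taken from RefSeq (GRCh38.p14) as the 250 bases before the annotated start, read on the strand of the gene, and those of KDM6B and KDM4B were ended at the first exon base of the count table's gene model. Capitals mark matches to any of the motifs searched on both strands, which were CRE (TGACGTCA), C/EBP-ATF (TGATGNAA), E-box (CACGTG), E2F (TTTGGCGC and TTTCCCGC), ETS (CCGGAAG) and the CCAAT box (CCAAT, or ATTGG on the other strand). No searched motifs overlap in the printed sequences.
KDM7A (chr7:140176984-140177233, minus strand): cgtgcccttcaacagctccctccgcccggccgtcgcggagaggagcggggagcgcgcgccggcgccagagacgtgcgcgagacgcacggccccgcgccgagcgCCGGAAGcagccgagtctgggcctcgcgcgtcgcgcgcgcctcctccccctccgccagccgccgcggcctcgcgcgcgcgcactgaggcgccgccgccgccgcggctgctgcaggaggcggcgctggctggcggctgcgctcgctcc
KDM6B (chr17:7833967-7834209, plus strand): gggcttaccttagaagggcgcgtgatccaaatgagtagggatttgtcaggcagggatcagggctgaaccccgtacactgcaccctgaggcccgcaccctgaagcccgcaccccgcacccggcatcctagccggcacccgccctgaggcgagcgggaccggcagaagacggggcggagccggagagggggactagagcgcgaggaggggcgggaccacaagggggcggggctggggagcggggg
KDM4A (chr1:43649899-43650148, plus strand): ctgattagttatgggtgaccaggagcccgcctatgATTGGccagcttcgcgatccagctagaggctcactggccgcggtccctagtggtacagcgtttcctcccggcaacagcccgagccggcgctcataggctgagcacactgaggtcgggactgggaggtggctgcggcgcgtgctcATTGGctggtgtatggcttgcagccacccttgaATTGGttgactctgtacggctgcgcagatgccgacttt
KDM4B (chr19:4968863-4969086, plus strand): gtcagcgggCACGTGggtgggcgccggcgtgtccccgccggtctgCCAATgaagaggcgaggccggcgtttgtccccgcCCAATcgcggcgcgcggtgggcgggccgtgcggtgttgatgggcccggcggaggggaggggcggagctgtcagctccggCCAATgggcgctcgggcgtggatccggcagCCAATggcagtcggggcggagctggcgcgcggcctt
The KDM7A window was 81.6% GC with 50 CpG dinucleotides, and held an ETS match that began 147 bases before the start. KDM6B had no match to any searched motif. KDM4A held 3 CCAAT boxes, all on the other strand, and KDM4B held 4 CCAAT boxes and an E-box. The CCAAT box was found in 32.0% of 35116 windows of all genes and in 31.7% of 63 windows of the enzymes. A window was found for 44 of the 46 enzymes. The shares were 8.52% and 12.7% for ETS, 6.34% and 14.3% for the E-box, 1.65% and 1.59% for CRE, 3.14% and 0% for C/EBP-ATF, 0.55% and 0% for TTTGGCGC, and 1.39% and 3.17% for TTTCCCGC. Median GC content was 69.2% in windows of the enzymes and 58.0% in all windows. A match says only that the letters are in the window.

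The remaining genes of the group were KDM8, KDM2A, KDM2B and KDM3B. KDM8, a JmjC protein with reported activity on H3K36, was scarce, at 7.70, 5.79, 5.55 and 6.20 CPM in DMSO and 8.30, 6.94, 8.90 and 7.82 CPM in PR-957. The ranges of KDM8 overlapped. Its log2 fold change was 0.34 (SE 0.14, adjusted p = 0.0474), and it was not called by DESeq2 (adjusted p = 0.075), nor without any 1 of 6 libraries (adjusted p from 0.0643 to 0.155). KDM2A and KDM2B, which act on H3K36, and KDM3B, which acts on H3K9, were not called (log2 fold changes 0.07, 0.04 and 0.06, with 95% intervals of -0.05 to 0.20, -0.08 to 0.16 and -0.07 to 0.19).

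The paralogs KDM6A (UTX) and KDM6B (JMJD3) also remove methyl groups from H3K27, and of this pair KDM6B was called. KDM6B, on chromosome 17 at 7834210-7854796 (plus strand), was at 49.4, 48.8, 47.8 and 56.9 CPM in DMSO and at 23.1, 23.6, 24.1 and 25.9 CPM in PR-957. All treated libraries were below all controls, and the spread within the treated group was small. The mean went from 50.7 ± 4.18 to 24.2 ± 1.19 CPM (SD, n = 4), a 2.10-fold decrease (log2 fold change -1.07, SE 0.07, adjusted p = 7.02e-10), with -1.07 in replicates 1 and 2 and -1.08 in replicates 3 and 4. KDM6A was at 15.5, 20.2, 18.8 and 20.1 CPM in DMSO and at 17.0, 20.9, 21.1 and 22.7 CPM in PR-957, and the ranges overlapped. It was not called (log2 fold change 0.13, 95% interval -0.08 to 0.34, adjusted p = 0.314). The difference between both changes was not tested itself, and the 95% interval of KDM6B was -1.22 to -0.92. Within each library, the ratio of KDM6B to KDM6A was also taken in TPM, that is counts per kilobase of exon scaled to a common total. It was 1.60 to 2.10 in DMSO and 0.746 to 0.899 in PR-957. By this measure KDM6B was above KDM6A in every control and below it in every treated library. In CPM, which carry no length, KDM6B stayed above KDM6A in every library. The exon length of the gene model was 9613 bases for KDM6B and 6351 bases for KDM6A.

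**Figure D2:**
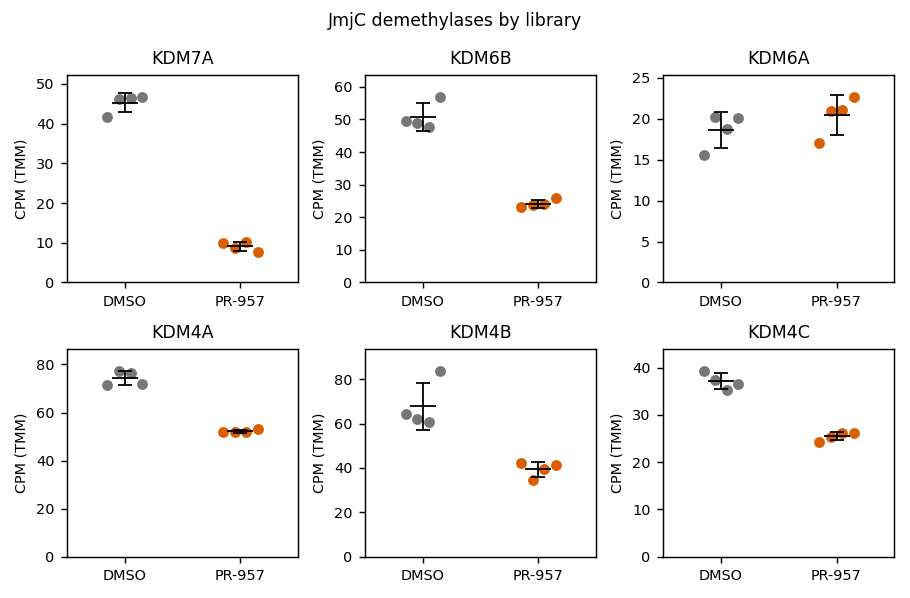
CPM of 6 JmjC demethylases in each library (points), with the mean and SD of 4 libraries per group as black bars, and y axes starting at 0. KDM7A, KDM6B, KDM4A, KDM4B and KDM4C are lower in all PR-957 libraries than in any DMSO library, and KDM6A overlaps.

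Of 5 tested H3K4 demethylases, 1 was lower and 0 were higher (edgeR, also 0 higher at an unadjusted p under 0.05 and by DESeq2), apart from 1 higher with library totals or a length trend. KDM1A (LSD1), the flavin-dependent enzyme of the CoREST complex, was among the most abundant of the whole set. It stood at 113, 116, 114 and 105 CPM in DMSO and at 93.5, 100.4, 95.7 and 102 CPM in PR-957. The groups of KDM1A did not overlap, although the highest treated and lowest control library were near each other. The log2 fold change was -0.19 (SE 0.05, adjusted p = 0.00743). In replicates 3 and 4 alone it was -0.15 (adjusted p = 0.157), and with library totals alone -0.11 (adjusted p = 0.0998). Its paralog KDM1B was not called (log2 fold change -0.20, 95% interval -0.40 to 0.00061), with a wider spread between libraries. The log2 fold change of KDM1B was -0.30 without PR-957 replicate 2, where it was called lower (adjusted p = 0.00498), and -0.12 without DMSO replicate 4 (adjusted p = 0.241). It was -0.05 in replicates 1 and 2 alone (adjusted p = 0.653) and -0.35 in replicates 3 and 4 alone (adjusted p = 0.0278). The JmjC enzymes KDM5A, KDM5B and KDM5C were not called (log2 fold changes 0.10, -0.09 and -0.03, with 95% intervals of -0.01 to 0.22, -0.25 to 0.07 and -0.17 to 0.11).

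SET-domain genes changed in both directions. Of 29 tested SET-domain genes, 5 were higher and 9 lower (11 and 5 with library totals alone), and their log2 fold changes ran from -0.44 to 0.34. The median absolute log2 fold change was 0.17 for these genes and 0.19 for the 15 demethylases. Among the 5 genes listed as H3K4 methyltransferases, SETD1A and SETD1B were higher and KMT2C was lower. SETD7, which also methylates H3K4, was lower and is given below with the other SET-domain proteins. SETD1A, a subunit of the complex that places most H3K4 trimethylation, was at 44.8, 46.6, 44.8 and 39.4 CPM in DMSO and at 50.7, 49.7, 55.9 and 52.7 CPM in PR-957. Its treated libraries were all above the controls (log2 fold change 0.25, SE 0.07, adjusted p = 0.00375). In part of the libraries the value was 0.14 in replicates 1 and 2 alone (adjusted p = 0.186) and 0.37 in replicates 3 and 4 alone (adjusted p = 0.0057). SETD1B changed by 0.21 (adjusted p = 0.0199) with overlapping groups, and lost its call when replicate 1 or 3 of DMSO, or 3 or 4 of PR-957, was omitted (adjusted p from 0.0513 to 0.0715). The log2 fold change of SETD1B was 0.05 in replicates 1 and 2 alone (adjusted p = 0.669) and 0.36 in replicates 3 and 4 alone (adjusted p = 0.00403). KMT2C, an enhancer monomethyltransferase, changed by -0.17 (adjusted p = 0.0264). It was not called without DMSO replicate 4 (adjusted p = 0.0641) or PR-957 replicate 1 (adjusted p = 0.0823). KMT2B and KMT2D were not called (log2 fold changes 0.02 and 0.12, with 95% intervals of -0.10 to 0.14 and -0.02 to 0.25).

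H3K9 methyltransferases were divided. SUV39H1, which trimethylates H3K9 in heterochromatin, rose from 29.4, 30.0, 27.5 and 28.1 CPM in DMSO to 36.7, 37.3, 36.3 and 35.8 CPM in PR-957. Both groups of SUV39H1 were tight and did not overlap (log2 fold change 0.34, SE 0.06, adjusted p = 0.000234). Its paralog SUV39H2 was not called (0.06, 95% interval -0.09 to 0.21). SETDB1, which methylates H3K9 at repeats and silenced genes, was lower in every treated library (log2 fold change -0.29, adjusted p = 0.00012), from 127 ± 4.45 to 103 ± 1.86 CPM. SETDB2 was also called lower (-0.31, adjusted p = 0.00752), but the readthrough gene SETDB2-PHF11 covers 41.5% of its exon bases in the same orientation, so its count is uncertain. EHMT1, which dimethylates H3K9, was not called (0.07, 95% interval -0.05 to 0.20). Its partner EHMT2 had 0 to 3 counts per library. The gene model of EHMT2 had 7 placements on chromosome 6 and its alternate contigs, and its level could not be read from these counts.

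The H3K27 methyltransferases EZH2 and EZH1, the catalytic subunits of Polycomb repressive complex 2 (PRC2), were not called, with 1 of the pair past an unadjusted p of 0.05 and 0 called by DESeq2. EZH2 was at 83.0, 87.5, 81.7 and 71.0 CPM in DMSO and at 89.8, 94.7, 83.2 and 90.9 CPM in PR-957. The groups overlapped, with DMSO replicate 4 the lowest. The log2 fold change was 0.15 (SE 0.07, 95% interval 0.01 to 0.29, adjusted p = 0.0654). It was called higher in 6 of 18 alternatives, among them those without DMSO replicate 2 (adjusted p = 0.0343) or PR-957 replicate 3 (adjusted p = 0.0451). Without DMSO replicate 4 the log2 fold change was lower, at 0.09 (adjusted p = 0.204). EZH1 was at 24.1, 26.3, 22.8 and 28.3 CPM in DMSO and at 23.8, 26.6, 30.1 and 30.9 CPM in PR-957, with wide overlap (0.13, SE 0.09, 95% interval -0.06 to 0.32, adjusted p = 0.24).

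For H3K36, 3 of 5 methyltransferases were lower (1 with library totals alone) and 1 was higher, beside 23.5% and 23.1% of all tested genes. ASH1L, which dimethylates H3K36, was at 43.0, 45.8, 38.8 and 45.9 CPM in DMSO and at 33.2, 34.6, 31.6 and 43.1 CPM in PR-957. The ranges overlapped through PR-957 replicate 4 (log2 fold change -0.29, SE 0.09, adjusted p = 0.0127). ASH1L was not called without PR-957 replicate 3 (adjusted p = 0.0523) or in replicates 3 and 4 alone (adjusted p = 0.359). SETD2, which trimethylates H3K36 and travels with RNA polymerase II, was at 85.6, 82.6, 83.9 and 85.2 CPM in DMSO and at 70.9, 75.0, 74.6 and 78.3 CPM in PR-957. No treated library of SETD2 reached a control (-0.17, SE 0.05, adjusted p = 0.0116), and in replicates 3 and 4 alone the value was -0.15 (adjusted p = 0.161). NSD1 and NSD2, which dimethylate H3K36, moved in opposite directions (log2 fold changes -0.27 and 0.28, adjusted p = 0.00108 and 0.000552), each without overlap between the groups. NSD3 was not called (-0.11, 95% interval -0.23 to -0.0042, adjusted p = 0.0824).

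H4K20 is monomethylated by KMT5A and then di- and trimethylated by KMT5B and KMT5C. KMT5B was at 35.4, 35.9, 34.2 and 37.3 CPM in DMSO and at 28.9, 25.8, 28.1 and 29.2 CPM in PR-957. The groups were well apart (log2 fold change -0.35, SE 0.07, adjusted p = 0.000306). KMT5C moved the other way, from 18.5 ± 0.685 to 23.1 ± 1.37 CPM (0.32, SE 0.08, adjusted p = 0.00226), also without overlap. KMT5A was not called (0.13, 95% interval 0.01 to 0.25, adjusted p = 0.0701). In TPM, KMT5C and KMT5B were nearly equal in every DMSO library, with ratios of 1.03 to 1.08, and KMT5C exceeded KMT5B in every PR-957 library, with ratios of 1.63 to 1.73. In CPM, KMT5C was below KMT5B in every library of both groups. Exon lengths were 3997 bases for KMT5C and 8166 bases for KMT5B.

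**Figure D3:**
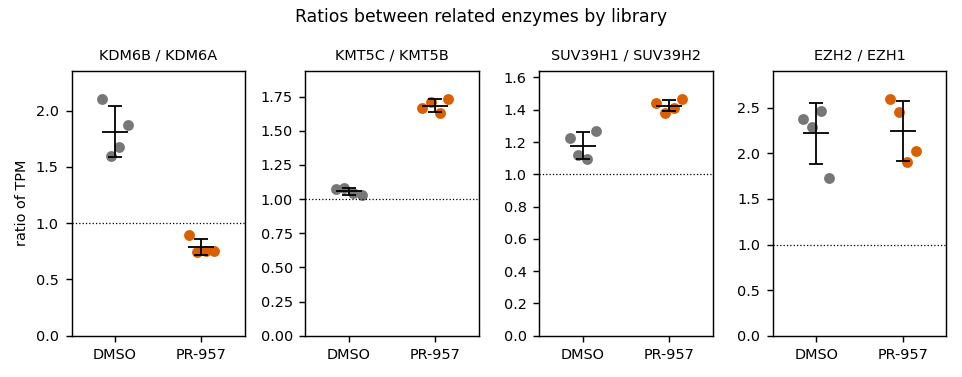
Ratio of TPM between pairs of related enzymes in each library (points), with the mean and SD of 4 libraries per group as black bars, and a dotted line at 1. KDM6B to KDM6A falls from 1.81 to 0.788 and KMT5C to KMT5B rises from 1.06 to 1.68 (means), while EZH2 to EZH1 overlaps between the groups.

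Such ratios compare genes within a library and do not depend on the scaling between libraries. Their size depends on the exon lengths of the gene models, which were the same in both groups. SUV39H1 to SUV39H2 was 1.18 ± 0.0835 in DMSO and 1.43 ± 0.0363 in PR-957 (SD, n = 4), without overlap. The ratio of EZH2 to EZH1 was 2.22 ± 0.334 and 2.25 ± 0.332, and that of KDM1A to KDM1B was 2.12 ± 0.291 and 2.12 ± 0.218, both with overlapping groups. These ratios were not tested. Summed TPM of KDM6A and KDM6B together was 17.6 ± 1.80 in DMSO and 12.8 ± 1.45 in PR-957.

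Among the other SET-domain proteins, some of which act on substrates besides histones, 2 of 9 were lower and 0 were higher (1 at an unadjusted p under 0.05 and 0 by DESeq2). SETD7, an H3K4 monomethyltransferase that also methylates other proteins, was at 59.9, 76.2, 69.4 and 70.9 CPM in DMSO and at 46.8, 54.7, 49.9 and 52.6 CPM in PR-957. Treated libraries were below all controls, with DMSO replicate 1 the lowest of its group. The log2 fold change of SETD7 was -0.44 (SE 0.07, adjusted p = 5.52e-05). SMYD3 was called lower (-0.18, adjusted p = 0.0395) with overlapping groups, and the call was lost in 11 of 18 alternatives, among them DESeq2 (adjusted p = 0.0528) and the omission of each library but DMSO replicate 2 (adjusted p from 0.0554 to 0.125). The 7 that were not called were KMT2E, SETD3, SETD4, SETD5, SETD6, SETD9 and SMYD2, with log2 fold changes of -0.06, 0.14, -0.0041, -0.02, 0.18, -0.20 and -0.02. SETD9 had the widest 95% interval of these (-0.48 to 0.09), and was called lower in replicates 3 and 4 only (adjusted p = 0.0374). SETD3 was close to the threshold (adjusted p = 0.0504) and was called higher in 6 of 18 alternatives, among them that without DMSO replicate 1 (adjusted p = 0.0205).

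Levels were compared between genes in TPM, that is per exon length of the gene model, and the order depends on that length. TPM carries no TMM scaling. In DMSO the enzymes spanned 3.37 to 62.3 TPM with a median of 14.2. SMYD2 (62.3 ± 5.59), KDM1A (62.0 ± 2.59) and SETDB1 (57.1 ± 2.18) headed the order, and their ranges over the 4 libraries overlapped. KMT5A (37.4 ± 2.10) and KDM4A (33.9 ± 1.69) followed, also with overlapping ranges. At the low end were SETD9 (3.37 ± 0.111), KDM8 (4.11 ± 0.593), KDM4C (5.99 ± 0.310) and KDM6A (6.30 ± 0.866), of which KDM4C and KDM6A did not differ beyond their spread. In PR-957 the tested enzyme with the lowest mean was KDM7A, at 2.19 ± 0.253 TPM after 10.5 ± 0.750 TPM in DMSO. Its range in PR-957, 1.90 to 2.49 TPM, overlapped that of SETD9, 2.21 to 3.54 TPM.

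**Figure D4:**
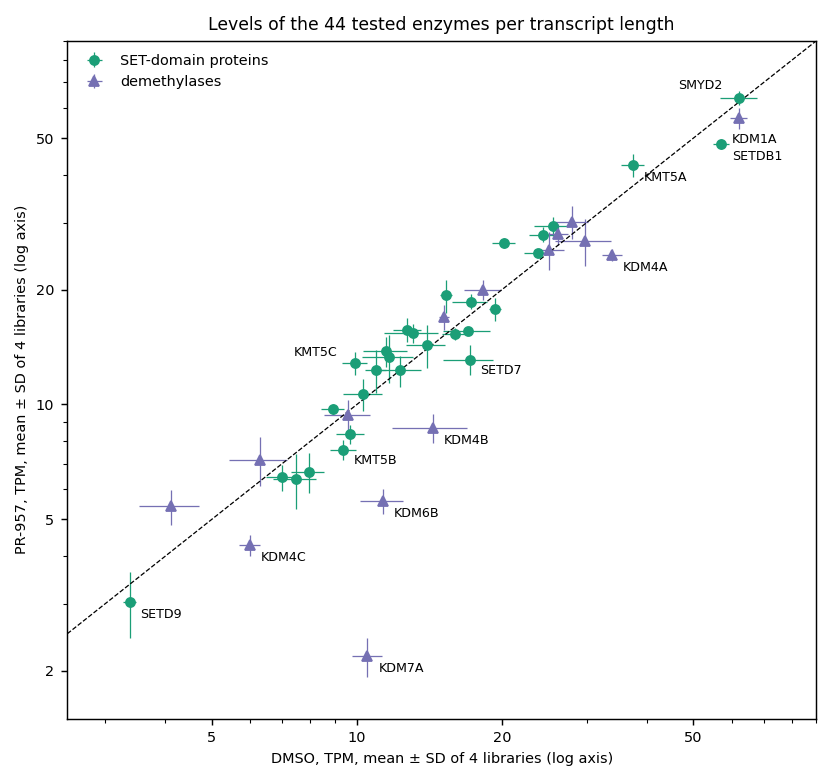
Mean TPM of the 44 tested enzymes in DMSO (x) and PR-957 (y), log axes, with SD of 4 libraries per group as bars and equality as a dashed line. KDM7A (10.5 against 2.19 TPM) and KDM6B (11.3 against 5.59 TPM) lie farthest below the line.

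The wider machinery was read from 8 further lists with 76 genes, of which 74 were tested. Of these, 16 were higher and 18 lower (45.9%, beside 46.6% of all tested genes), and with library totals alone 30 were higher and 12 lower. Of 10 partners of KDM1A in the CoREST complex, 6 were lower and 0 higher (1 higher at an unadjusted p under 0.05, 0 by DESeq2), led by the scaffold RCOR2 (log2 fold change -0.51, adjusted p = 0.000355) and the histone reader PHF21A (-0.46, adjusted p = 3.05e-05). With library totals alone, 3 were lower and 2 higher. Lower calls made up 23.5% of all tested genes, and no list was tested against other genes. In the supply of the methyl donor S-adenosylmethionine, 5 of 9 genes were lower and 0 higher (0 at an unadjusted p under 0.05 and 0 by DESeq2), with AHCYL1, a relative of the S-adenosylhomocysteine hydrolase AHCY, at -0.80 (adjusted p = 6.26e-09) and the methionine synthase MTR at -0.43 (adjusted p = 3.53e-06). In the same list MAT2A was not called (log2 fold change -0.12, adjusted p = 0.138 in edgeR), and AHCY itself was lower (-0.32, adjusted p = 0.000312). With library totals 1 gene of that supply list was called higher. No change in the donor itself was measured.

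Partners of the methyltransferases were mixed, where 23.1% of all tested genes were higher and 23.5% lower. Of 10 PRC2 partners, 3 were higher (1 in replicates 3 and 4 only) and 1 lower (3 without DMSO replicate 4), with the histone chaperone RBBP7 at 0.53 (adjusted p = 3.02e-07) and AEBP2 at -0.35 (adjusted p = 0.000396). Of 11 partners in COMPASS, the complexes that house the H3K4 methyltransferases, 4 were higher and 1 lower, led by PAGR1 (0.49, adjusted p = 1.04e-05) and DPY30 (0.36, adjusted p = 9.77e-05). With library totals alone, 7 of the COMPASS partners were higher. For H3K9 methylation, 2 of 10 partners were higher and 3 lower, against 5 and 1 with library totals alone. The heterochromatin protein CBX5 (HP1 alpha) fell by 0.62 on the log2 scale (adjusted p = 9.79e-08) and TRIM28, which recruits SETDB1, rose by 0.39 (adjusted p = 3.31e-05). Among genes that make or use 2-oxoglutarate and 2-hydroxyglutarate, the cofactor of JmjC demethylases and its antagonist, 3 of 9 were higher (5 with library totals alone) and 1 lower, led by D2HGDH (-0.42, adjusted p = 6.06e-06) and IDH3B (0.41, adjusted p = 5.19e-06).

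**Figure D5:**
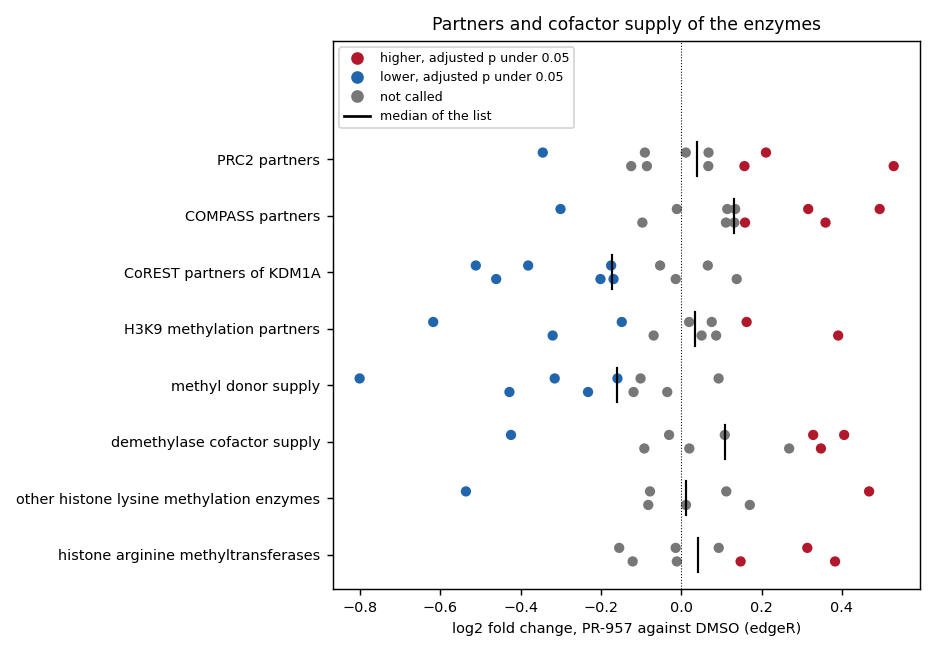
Log2 fold change (PR-957 against DMSO, edgeR) of each tested gene (points) in 8 lists of partners and cofactor supply, coloured by call at an adjusted p under 0.05, with a bar at the list median. Lowered genes are most frequent in the CoREST and methyl donor lists, with medians of -0.17 and -0.16.

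Other enzymes of histone methylation complete the picture. Of 7 tested lysine enzymes that the naming rule did not take, JMJD1C, a JmjC protein of the KDM3 family, was lower (-0.54, adjusted p = 5.94e-07) and the JmjC oxygenase RIOX1 was higher (0.47, adjusted p = 0.000226). The H3K79 methyltransferase DOT1L, a cofactor of KMT2A fusions, was not called (-0.08, adjusted p = 0.233). Of 8 arginine methyltransferases, 3 were higher and 0 lower (0 at an unadjusted p under 0.05 and 0 by DESeq2, with 1 lower in replicates 1 and 2 only and 1 without DMSO replicate 4), led by PRMT2 (0.38, adjusted p = 0.0039) and PRMT6 (0.31, adjusted p = 0.00515). In replicates 3 and 4 only, 1 arginine methyltransferase was higher. The share called was 37.5% for the arginine enzymes and 28.6% for these further lysine enzymes, beside 46.6% of all tested genes.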

How the data were processed

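Counts were analysed from 8 libraries of polyA RNA of MOLM-13 cells, 4 with DMSO and 4 with PR-957, grouped by sample title. The authors trimmed reads with Trimmomatic 0.39, aligned them to hg38 with STAR 2.7.10a and, per the file headers, counted fragments on RefSeq gene models with featureCounts 2.0.1, with both ends mapped and on the reverse strand. The deposited values are raw counts per gene. The labels do not say whether the library kit kept strand. Genes on the opposite strand cover 19.7% of the exon bases of SMYD2, 24% of those of KMT2E and 26.6% of those of SETD6. Without strand in the kit these counts would be uncertain, and with them the place of SMYD2 in the TPM order. The counting command named 16 libraries, of which the table holds 8, and 6 gene rows without values were left out. A deposited table of the authors' own DESeq2 comparison was not used.

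Genes were compared in edgeR 4.0.16 (R 4.3.3) with TMM scaling, filterByExpr, a robust quasi-likelihood fit with treatment as the single term, two-sided tests and Benjamini-Hochberg adjustment over all 13179 tested genes, which held 99.9% of the counts. SE is the log2 fold change over the square root of F. The lowest chi-square per gene between replicates was 3.32, where sampling noise gives about 1, so no library was counted as a duplicate. Among DMSO replicates 1, 2 and 3 it was 3.32 to 5.83. DMSO replicate 4 was at 12.35, 15.31 and 10.22 against these, and pairs of PR-957 libraries were at 4.43 to 9.085. DMSO replicate 4 thus stood apart from the other controls across the counted genes, and the cause was not tested. The labels do not say that replicates were separate cultures, so p-values measure the spread between these libraries, which may be technical. Limits from a count of 0 cover counting error only. Values in every library are given for called enzymes with a change of at least 0.322 on the log2 scale, the called enzyme with the largest change per role, and EZH1, EZH2, KDM1A, KDM6A and SETD2, with 2 called genes per further list. SETD1B, KMT2C, SETDB1, SETDB2, NSD1, NSD2, KMT5C, SMYD3, MPO, CEBPA, MAT2A, AHCY and DOT1L were described in addition. The members and lists were chosen with earlier results of these data known. Alternatives were DESeq2 1.42.0, other scalings and filters, replicate terms, subsets of replicates, an offset for transcript length, and leaving out each library.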

Additional observations from a re-analysis of the deposited data

Results flagged for a closer look

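In 5 of 88 groups of 4 libraries (44 enzymes in each treatment), 1 library stood apart from the other 3 by Dixon's criterion, where chance gives about 1 in 20 such groups. NSD1 was lowest in DMSO replicate 1, at 60.1 CPM with the next library at 66.3. SETD6 was lowest in DMSO replicate 4, at 22.3 CPM with the next at 29.8. KDM4A was highest in PR-957 replicate 4, at 53.0 CPM with the next at 52.0, in a group with a very narrow range. KDM4B was highest in DMSO replicate 4, at 83.7 CPM with the next at 64.4. KDM7A was lowest in DMSO replicate 1, at 41.6 CPM with the next at 46.2.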

How the results depend on the processing

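Calls for SUV39H1, SETDB1, NSD1, NSD2, KMT5B, KMT5C, SETD7, KDM4A, KDM4B, KDM4C, KDM7A and KDM6B kept their direction and side of the threshold in all 18 alternatives. The number of enzymes called was 4 to 6 higher and 13 to 15 lower when 1 library was left out. It was 13 higher with library totals alone and 3 higher in replicates 1 and 2 only. For the further lists, 14 to 17 genes were higher and 14 to 21 lower with 1 library left out, 30 were higher with library totals alone and 10 in replicates 3 and 4 only. Over all genes, 2613 to 3125 were higher and 2692 to 3162 lower with 1 library left out. The median level of the enzymes in DMSO was 57.0 CPM, 56.0 to 57.9 with 1 library left out, and 55.5 with library totals alone. Library totals moved the median log2 fold change of all genes by 0.078.

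Directions changed only for enzymes that were not called. With library totals alone the log2 fold changes became 0.0478 for KDM5C, 0.0227 for KMT2E, 0.0724 for SETD4, 0.0605 for SETD5 and 0.0622 for SMYD2. With the length offset they were 0.00551 for KDM5C, 0.00446 for KMT2E, 0.0234 for SETD4 and 0.0606 for SETD5. In replicates 1 and 2 only they were -0.0258 for KMT2B, 0.0202 for SETD4 and 0.0627 for SETD9, and in replicates 3 and 4 only 0.0208 for KDM5C, 0.0179 for SETD5 and 0.0722 for SMYD2. With 1 library left out, log2 fold changes ran from -0.0938 to 0.0252 for KDM5C, from -0.0134 to 0.0510 for KMT2B, from -0.0847 to 0.0518 for SETD4, from -0.0676 to 0.0328 for SETD5 and from -0.0871 to 0.0178 for SMYD2. The cause was not tested.

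With the replicate number as a block, 9 enzymes were higher and 17 lower, and EZH2, SETD3 and KMT5A were then called higher and KDM1B and NSD3 lower. With a term that set replicates 1 and 2 apart from 3 and 4, 8 enzymes were higher and 15 lower, and EZH2 and SETD3 were then called higher. Deviations of same-numbered libraries correlated at 0.15, 0.21, 0.098 and 0.20, all positive but low. The labels give replicate numbers alone, and the numbers were not taken as a pairing. Of the 8 libraries, 7 correlated best with the library of the other group that had their own number, and PR-957 replicate 3 correlated best with DMSO replicate 4, which is a hint from the data and not from the design. With library totals alone, ASH1L, KDM1A, SETD2, KMT2C and SMYD3 were no longer called (adjusted p = 0.0899, 0.0998, 0.166, 0.252 and 0.24), and EHMT1, EZH2, KDM5A, KMT2D, KMT5A, SETD3 and SETD6 were called higher. With the length offset, KDM8, KMT2C and SMYD3 were not called, and EZH2, KDM5A, KMT2D and SETD3 were called higher. In replicates 3 and 4 only, ASH1L, KDM1A, KMT2C, SETD2 and SETDB2 were not called (adjusted p = 0.359, 0.157, 0.134, 0.161 and 0.292). SETD9 and KDM1B were then called lower (log2 fold changes -0.49 and -0.35, adjusted p = 0.0374 and 0.0278). In replicates 1 and 2 only, KDM8, KMT2C, SETD1A, SETD1B and SMYD3 were not called (adjusted p = 0.441, 0.0766, 0.186, 0.669 and 0.653). With 4 libraries per group, changes of enzymes at few counts, such as KDM8 and SETD9, had the widest intervals.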
